A study of Mus musculus with 5 samples.

Results

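AP-1 and the other immediate early genes were followed in the luminal layer of the mouse uterus from the pre-implantation days to the morning after embryo attachment. The group held 10 genes, found by gene symbol in the deposited table of 23420 genes. They were the Fos family (Fos, Fosb, Fosl1 and Fosl2), the Jun family (Jun, Junb and Jund), and Egr1, Atf3 and Ier3. All 10 symbols were present, and all 10 were among the 12915 genes whose mean level over the 5 libraries reached 1 CPM, that is, 1 count per 1000000. Fosl1 passed that filter only through its level in 1 day 5 library, and Fosb only through its level on day 4 evening.

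Immediate early genes are transcribed within minutes of a signal at the cell surface, because the factors that switch them on are already present and need only be phosphorylated. The Fos and Jun proteins pair through a leucine zipper to form AP-1, which binds a short palindromic DNA element, and different pairs activate or restrain different targets. In the uterus these genes are known for their answer to oestrogen and to growth factors, and the signals that an attached blastocyst exchanges with the luminal epithelium include ligands of the epidermal growth factor family.

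The samples came from wild-type C57BL/6N females, with day 1 of pregnancy set by the vaginal plug, and the luminal layer was cut from frozen sections with a laser. The RNA-seq libraries were of day 3 (morning), day 4 (1 of the morning, 1 of the evening) and day 5 (morning), where tissue was taken at positions distant from the embryo (day 5 away, M pole in the label) and next to it (day 5 around, AM pole). Nearness to the embryo and the pole of the uterus in the label thus cannot be told apart between the day 5 libraries. Mice of day 5 had received Chicago blue dye by vein to mark implantation sites, so the dye and the day cannot be told apart between day 4 and day 5. Day 4 evening was the only evening library, so time of day and stage of pregnancy cannot be told apart in comparisons with it. There was 1 library in each group, the number of mice behind each was not given for these libraries (the study's methods describe pooling of RNA for its Lif groups), and no difference between groups has a replicate check. The ages of the females were not given in the labels.

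The libraries held 15334674 counts (day 3 morning), 19529491 (day 4 morning), 16560409 (day 4 evening), 16702914 (day 5 away) and 19136032 (day 5 around). The 10 genes together took 20930, 19038, 23698, 23276 and 62140 of those counts in the same order. On the CPM scale, set by TMM library scaling, their summed level was 1205, 1060, 1498, 1248 and 3608. The day 5 around library therefore held the highest summed level, and the other 4 lay between 1060 and 1498. In bulk libraries of this kind, a change in the share of cells that hold a transcript and a change in its amount per cell cannot be told apart. Intervals in the text are exact 95% intervals and cover counting error only.

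The day 5 around library stood apart from the other 4 in its markers of other cells. Of 11 embryo and trophoblast markers, all were detected there, with a summed 125 CPM, against 5.47 to 13.8 CPM and 5 to 7 of the 11 at 0 counts in the other libraries. Tfap2c, the most abundant of them on average and a trophectoderm factor, was at 0.576, 0.835, 0.190, 4.24 and 39.1 CPM from day 3 morning to day 5 around. On days 3 and 4 Elf5 was above it, at 2.82, 8.24 and 4.87 CPM, as was Eomes, at 1.32, 3.45 and 2.53 CPM. Pou5f1, a factor of pluripotent embryo cells, had 68 counts in day 5 around and 0 in the other 4 libraries. The 6 smooth muscle markers summed to 10.9, 18.9, 24.4, 31.8 and 395 CPM, of which Des (desmin, also made by decidualizing stroma) gave 354 CPM in day 5 around. The 6 endothelial markers summed to 12.96, 26.3, 31.6, 45.5 and 95.9 CPM, and the list did not move together. Between the day 5 libraries 1 of the 6 was higher around the embryo (Cdh5, the endothelial cadherin, at 7.13 and then 71.4 CPM), 2 were lower (Kdr and Emcn), and Tek, Tie1 and Pecam1 did not pass the limit of 2-fold. Of all 12915 kept genes 13.4% were higher and 15.0% lower in the same comparison, so the 1 higher was near that share.

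The luminal epithelium itself was present in all 5 libraries. None of its 9 markers was at 0 counts in any library, and their summed level was 9962, 12590, 8962, 3538 and 6556 CPM. Most of that sum on days 3 and 4 was Calb1, a calcium-binding protein of the luminal epithelium before attachment, which was at 5468, 7978 and 4621 CPM there and at 72.8 and 17.8 CPM in day 5 away and day 5 around. Between the day 5 libraries 4 of the 9 were higher around the embryo (Krt19, Epcam, Cdh1 and Wnt7a) and 1 was lower (Calb1), with a median log2 change of 0.93. Of all kept genes 13.4% were higher and 15.0% lower there, which serves for the stromal and immune lists below as well. The 1 lower was near that share. With libraries scaled to their totals in place of TMM, 2 of the 9 were higher and 1 was lower, with a median of 0.62, beside 9.97% and 21.7% of all kept genes. The 11 stromal markers summed to 661, 593, 675, 643 and 494 CPM, and between the day 5 libraries 2 of the 11 were higher around the embryo and 4 were lower. The 2 higher were near the share of all kept genes. The most abundant stromal marker on average, the fibrillar collagen Col3a1, was at 142 CPM in day 5 away and 42.3 CPM in day 5 around. The stromal factor Hand2 was at 20.9 and 132 CPM, so it was above Col3a1 in day 5 around. The decidual signal Bmp2 was at 7.51 and 41.8 CPM. Summed immune markers, 8 of a list of 9, went from 694 CPM on day 3 morning and 1227 CPM on day 4 morning to 929, 427 and 199 CPM in the later libraries. Cd14, the most abundant on average, was at 202 CPM in day 5 away and 54.5 CPM in day 5 around. Between these libraries 3 of the 8 were higher around the embryo (S100a8, Cd68 and S100a9) and 5 were lower, with a median log2 change of -1.66, and S100a8 went from 0.322 to 55.4 CPM. The 6 gland markers measured of 7 summed to 7.56 CPM in day 5 away and 59.9 CPM in day 5 around, against 30.1, 19.2 and 37.4 CPM before, with Sox9 the most abundant. Lif, a cytokine of the glands that is also made by stroma around the attached embryo, gave 17.7 CPM of the sum in day 5 around and 0.107 CPM in day 5 away, and Foxa2, the factor that defines uterine glands, was between 0 and 2.84 CPM. Of the 7 red blood cell markers 5 were found by symbol, and the globins Hbb-bs and Hbb-bt were not. The globins found were listed at 0 in every library, and Alas2, the most abundant of the 5, reached at most 1.89 CPM. The treatment of reads with several alignments was not given, so these globin values do not show that blood was absent. The part of these other cells in the levels of the 10 genes was not tested.

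**Figure D1:**
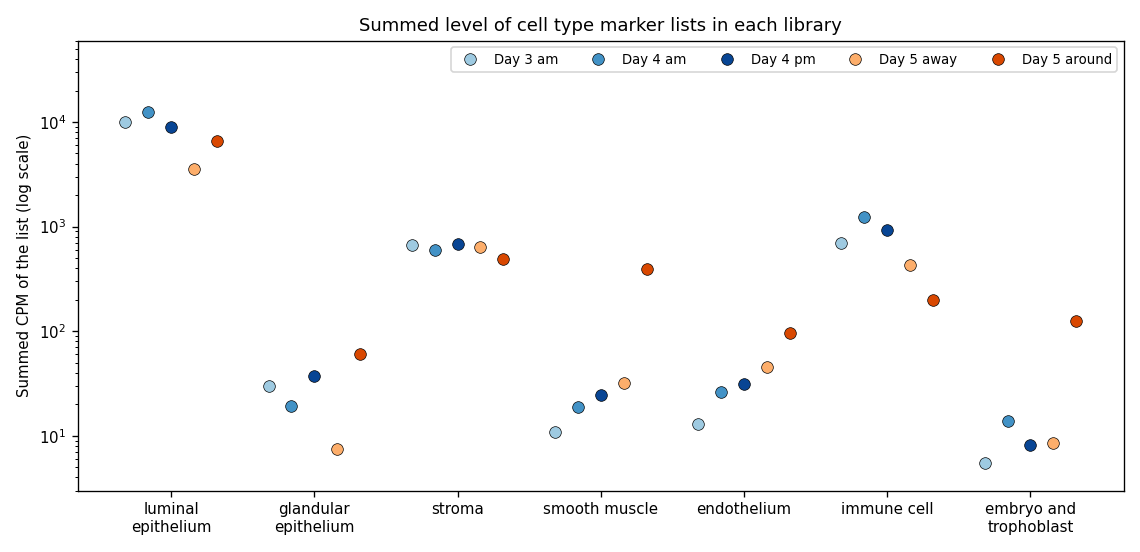
Summed level of each cell type marker list (x axis) in each of the 5 libraries, in TMM-scaled CPM on a log axis, with 1 point per library. The embryo and trophoblast list and the smooth muscle list stood at 125 and 395 CPM in day 5 around, above the points of the other 4 libraries.

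The promoters of 4 of the 5 genes that were higher on day 4 evening than that morning are shown, so that their letters can be set beside each other. RefSeq promoter windows on GRCm38.p6 were matched for 8 of the 10 genes, and Fosl1 and Egr1 had no entry. Each sequence below is the 250 bases before the transcription start, 5′ to 3′ on the strand of the gene, with capitals marking motif matches. Those of Fos (chr12:85473640-85473889, plus strand), Fosb (chr7:19310046-19310295, minus strand), Fosl2 (chr5:32136222-32136471, plus strand) and Ier3 (chr17:35821463-35821712, plus strand) read as follows.
Fos: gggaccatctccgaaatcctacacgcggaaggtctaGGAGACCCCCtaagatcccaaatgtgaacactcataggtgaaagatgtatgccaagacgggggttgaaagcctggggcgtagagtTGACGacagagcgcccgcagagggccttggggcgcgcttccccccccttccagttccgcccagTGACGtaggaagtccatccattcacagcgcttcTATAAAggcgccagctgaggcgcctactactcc
Fosb: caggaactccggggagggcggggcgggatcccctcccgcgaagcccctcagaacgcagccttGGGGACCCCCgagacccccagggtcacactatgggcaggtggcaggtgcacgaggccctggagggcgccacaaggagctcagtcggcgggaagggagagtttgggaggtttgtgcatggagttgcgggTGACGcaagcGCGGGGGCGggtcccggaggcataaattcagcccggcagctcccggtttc
Fosl2: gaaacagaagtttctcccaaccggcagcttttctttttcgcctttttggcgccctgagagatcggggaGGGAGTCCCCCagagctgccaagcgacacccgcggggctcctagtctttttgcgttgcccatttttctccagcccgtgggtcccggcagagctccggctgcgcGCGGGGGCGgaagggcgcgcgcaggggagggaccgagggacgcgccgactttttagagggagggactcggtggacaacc
Ier3: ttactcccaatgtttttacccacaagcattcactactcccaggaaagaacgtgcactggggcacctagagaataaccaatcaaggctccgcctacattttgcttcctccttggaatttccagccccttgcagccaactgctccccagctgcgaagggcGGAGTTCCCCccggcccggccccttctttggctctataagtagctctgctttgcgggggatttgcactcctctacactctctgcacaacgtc

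Capitals in Fos mark, from left to right, an NF-kB site, a pair of CRE half-sites (TGACG) and a TATA box (TATAAA). The CRE half-sites lay 129 to 125 and 66 to 62 bases before the start, and the TATA box 33 to 28 bases before it. In Fosb they mark an NF-kB site, a CRE half-site 60 to 56 bases and an Egr site (GCGGGGGCG) 50 to 42 bases before the start. Fosl2 held overlapping NF-kB matches and an Egr site 79 to 71 bases before its start, and Ier3 held an NF-kB match 92 to 83 bases before its start. Junb and Atf3, not shown, held a CRE half-site each, and the windows of Jun and Jund held no match.

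The motifs searched, on both strands, were the AP-1 element TGACTCA, the CRE TGACGTCA, its half-site TGACG (every full CRE holds a half-site), the CArG box, the Egr site, the Stat site TTCNNNGAA, the NF-kB site and the TATA box. Of 32851 RefSeq promoter windows cut to the same 250 bases, 4.46% held the AP-1 element, 1.55% the CRE, 17.8% the half-site and 1.47% the CArG box. The Egr site was in 2.57%, the Stat site in 7.02%, the NF-kB site in 7.25% and the TATA box in 12.4%. The 8 windows of the genes were 47.6% (Jund) to 68.8% (Fosb) G and C, beside a median of 52.4% over all windows. The shares given were not matched for this. None of the 8 windows held the AP-1 element, the full CRE, the CArG box or the Stat site in these letters. Bases further upstream than 250 before the start were not searched, so sites there are not covered. A match here is a description of the letters, and nothing about binding was measured.

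Fos is the founding member of the family and the classical immediate early gene, and its protein cannot pair with itself and needs a Jun partner. It lies at chr12:85473901-85477270 on the plus strand of GRCm38, with 4 exons. Its level was 14.0, 13.6, 73.2, 19.3 and 104 CPM in the libraries from day 3 morning to day 5 around, in the order given above and used for all lists of 5 values. Day 4 evening and day 5 around were thus the high libraries, and day 5 away was close to the mornings before. The log2 change from day 4 morning to evening was 2.41 (interval 2.22 to 2.63), which is 5.37-fold. From day 4 evening Fos was 3.79-fold lower in day 5 away (log2 change -1.92, interval -2.10 to -1.75). In day 5 around it was 5.36-fold above day 5 away, and its log2 change from day 4 evening was 0.50 (0.39 to 0.61), within the 2-fold limit used to call a change. Only the day 3 and day 4 mornings could not be separated by their counts.

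Fosb, whose short splice form acts as a stable repressor or weak activator in other tissues, lies at chr7:19302696-19310045 on the minus strand. It had 8, 12, 77, 0 and 14 counts in the 5 libraries, or 0.461, 0.668, 4.87, 0 and 0.813 CPM. Its high point was day 4 evening alone, 7.28-fold above day 4 morning (log2 change 2.67, interval 1.98 to 3.88). Day 5 away, with no count, was at least 30.3-fold lower than day 4 evening when 3 counts are taken as the floor of each library. Day 5 around was 5.99-fold lower than day 4 evening, with a log2 change of -2.42 (-3.52 to -1.75), and with the same floor at least 5.05-fold higher than day 5 away. Counting error can take these folds below those bounds, to log2 changes of -4.59 for day 5 away against day 4 evening and 1.84 within day 5. The levels in day 5 around and on the mornings of days 3 and 4 were not separated by their counts.

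Fosl1 (Fra-1), which lacks the strong activation domain of Fos and is itself a target of AP-1 in many cells, lies at chr19:5447698-5455938 on the plus strand. It had 0 counts in the 3 libraries of days 3 and 4, 8 in day 5 away and 116 in day 5 around. The gene was thus found on day 5 alone, at 0.429 CPM away from the embryo and 6.74 CPM around it. The upper limits of the exact 95% intervals of those 0 counts were 0.212, 0.205 and 0.233 CPM, and the floor of 3 counts used for folds stood at 0.173, 0.167 and 0.190 CPM. With that floor, day 5 around was at least 35.5-fold above day 4 evening. The counting interval of the log2 change began at 4.83, below that bound. Day 5 around was 15.7-fold above day 5 away (log2 change 3.65, interval 2.95 to 5.22). With the same floor, day 5 away was at least 2.26-fold above day 4 evening. The counting interval of that log2 change began at 0.53, so it crossed the 2-fold limit. An exon of Fosl1 overlaps Ccdc85b on the opposite strand, and the strand setting of the counting was not given in the sources used here. Ccdc85b had 218, 243, 251, 718 and 523 counts, so it too had higher counts in both day 5 libraries than before, with log2 changes from day 4 evening of 1.27 in day 5 away and 0.93 in day 5 around. Where they overlap, reads of the pair cannot be told apart.

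Fosl2 (Fra-2), the other Fos protein without a strong activation domain, lies at chr5:32136472-32157839 on the plus strand and was the most abundant family member by RPKM in every library but day 4 evening. Its level was 63.3, 51.8, 122, 319 and 510.1 CPM. It stepped up at each sampling after day 4 morning and, unlike Fos, was also high in day 5 away. It was 2.36-fold higher on day 4 evening than that morning (log2 change 1.24, interval 1.13 to 1.35) and 2.61-fold higher again in day 5 away (1.38, 1.31 to 1.46). Day 5 around was 4.17-fold above day 4 evening and 1.60-fold above day 5 away, and the latter log2 change of 0.68 (0.63 to 0.73) was under the limit. All 5 libraries differed from their neighbours in level by more than counting error.

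Jun, the partner that gives AP-1 its strongest activity and that can also pair with itself, lies at chr4:95049036-95052222 on the minus strand in a single exon. Its level was 188, 77.8, 31.6, 36.9 and 65.1 CPM, highest on day 3 morning and lowest on day 4 evening. Within day 4 its direction was thus opposite to that of Fos, while within day 5 the log2 change of each, around over away, was above 0 (0.82 for Jun, under the limit, and 2.42 for Fos). Jun was 2.42-fold lower a day after the day 3 sample (log2 change -1.27, interval -1.37 to -1.18) and 2.46-fold lower again by the evening (-1.30, -1.45 to -1.15). Day 5 around was 2.06-fold above day 4 evening (1.04, 0.89 to 1.20), a change whose interval crossed the 2-fold limit, and the change between the day 5 libraries was 0.82 (0.68 to 0.96).

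Junb, a weaker activator than Jun that can oppose it at shared targets, lies at chr8:84976909-84978748 on the minus strand. Its level was 194, 262, 455, 383 and 1099.7 CPM. The last library was the highest, and the steps between the other 4 were each under 2-fold. Day 5 around was 2.42-fold above day 4 evening (log2 change 1.27, interval 1.23 to 1.31) and 2.87-fold above day 5 away (1.52, 1.48 to 1.56). Jund, the member usually present in resting cells, lies at chr8:70697739-70700616 on the plus strand and was at 687, 600.1, 663, 384 and 782 CPM. It had the smallest span of the 10 genes, with a log2 range of 1.02 over the 5 libraries, and 36.4% of all kept genes had a smaller one. Its low library was day 5 away, and day 5 around was 2.04-fold above it (1.02, 0.98 to 1.07). Jun and Jund each overlap an antisense transcript in GENCODE vM21 (Junos and Gm11175), whose reads cannot be told apart from theirs without the strand setting.

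**Figure D2:**
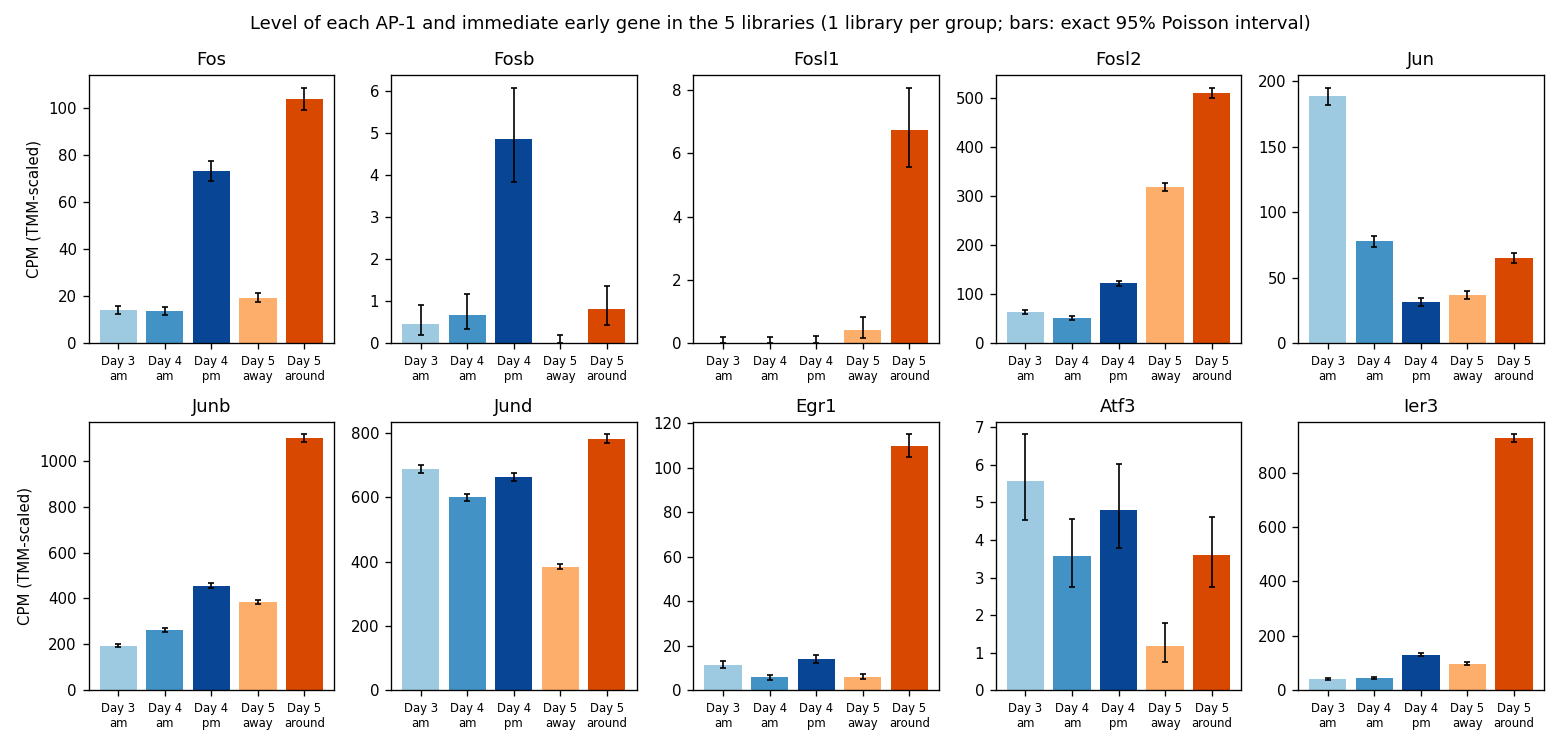
Level of each of the 10 genes in each library, in TMM-scaled CPM on a linear axis of its own per gene; bars are single libraries and lines are exact 95% Poisson intervals of the count. Fos was high on day 4 evening and in day 5 around (73.2 and 104 CPM), Fosb on day 4 evening, Jun on day 3 morning, and Egr1 and Ier3 in day 5 around.

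Per length, the balance between the families shifted towards Fos. The summed RPKM (reads per kilobase of the gene length in the file and per 1000000, with the same library scaling) of the Fos family was 17.6, 15.5, 57.1, 63.8 and 141, and that of the Jun family was 403, 375, 487, 353 and 890. Jun family transcripts were therefore 22.9 and 24.2 times those of the Fos family on the mornings of day 3 and day 4. The ratio was 8.53 on day 4 evening, 5.54 in day 5 away and 6.33 in day 5 around. This ratio does not depend on the library scaling.

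Within each family the leading member also changed. On the RPKM scale Fos made up 38.0%, 41.9%, 61.2%, 14.4% and 35.2% of the Fos family and Fosl2 made up 61.3%, 56.9%, 36.5%, 85.2% and 61.9%. Fos thus led on day 4 evening only, and day 5 away was the library in which Fosl2 took the largest share. Fosb reached 2.26% at its highest, and Fosl1 2.81%. In the Jun family, the RPKM share of Junb was 26.1%, 38.0%, 50.7%, 58.9% and 67.2%, and that of Jund was 59.2%, 55.5%, 47.3%, 37.8% and 30.5%. Junb passed Jund between day 4 morning and day 4 evening. Jun went from 14.7% on day 3 morning to 6.51%, 2.03%, 3.27% and 2.30%.

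**Figure D3:**
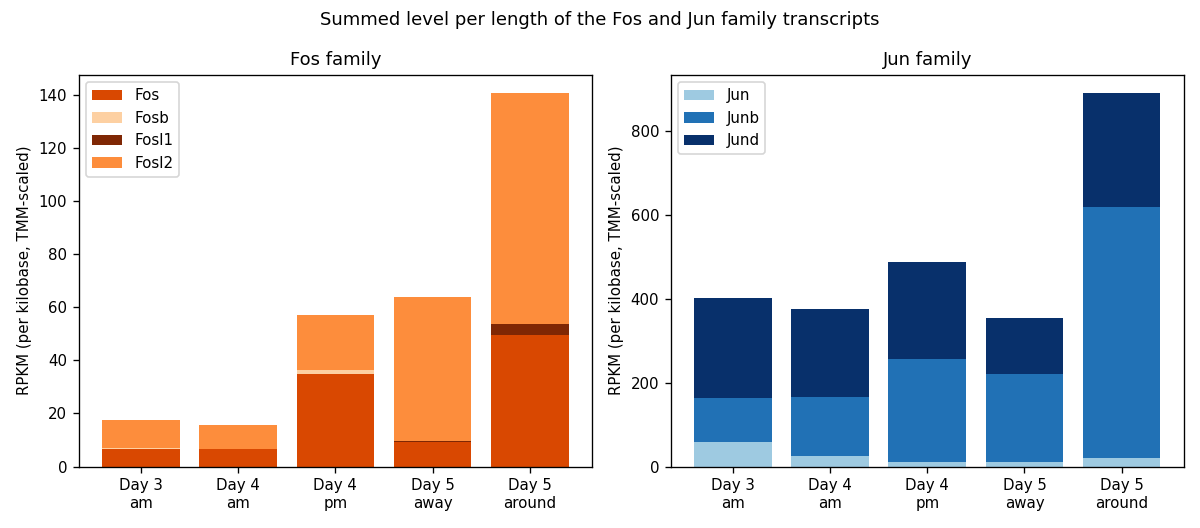
Summed level per length (RPKM, linear axis from 0) of the Fos family at left and the Jun family at right in each library, with each bar divided by gene. Fosl2 made up 85.2% of the Fos family in day 5 away, and Junb made up 67.2% of the Jun family in day 5 around.

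Egr1, a zinc finger factor switched on by the same signals as Fos, lies at chr18:34861207-34864956 on the plus strand. Its level was 11.5, 5.74, 13.9, 6.00 and 110.0 CPM. The first 4 libraries stayed low, day 4 evening was not separated from day 3 morning nor day 5 away from day 4 morning, and day 5 around was far above all of them. It was 18.3-fold above day 5 away (log2 change 4.17, interval 3.92 to 4.48) and 7.91-fold above day 4 evening (2.97, 2.78 to 3.19). Day 4 evening was 2.42-fold above that morning, though the interval of 0.93 to 1.63 around the log2 change of 1.26 crossed the limit, and day 5 away was 2.32-fold below day 4 evening (-1.20, -1.55 to -0.88).

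Ier3, an inhibitor of stress-induced cell death that also modulates MAP kinase signalling, lies at chr17:35821713-35822911 on the plus strand. Its level was 41.3, 44.4, 130, 97.5 and 926 CPM. By RPKM it was the most abundant of the 10 genes in day 5 around, at 850 against 598 for Junb and 272 for Jund. Its log2 change was 1.54 (1.43 to 1.66) from day 4 morning to evening, 2.92-fold. Day 5 around was 7.15-fold above day 4 evening (2.84, 2.77 to 2.90) and 9.5-fold above day 5 away (3.25, 3.18 to 3.32).

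Atf3, a stress-induced factor of the ATF/CREB family that can pair with Jun proteins and often represses, lies at chr1:191170297-191183333 on the minus strand. It had 97, 64, 76, 22 and 62 counts, or 5.59, 3.56, 4.80, 1.18 and 3.60 CPM. Day 5 away was the low library, 4.07-fold below day 4 evening (log2 change -1.93, interval -2.78 to -1.33) and 3.05-fold below day 5 around (1.52, 0.89 to 2.38, for day 5 around over day 5 away). Neighbours in level among the other 4 libraries were not separated by counting error, although the highest and lowest of them, day 3 and day 4 morning, were (-0.63, -1.13 to -0.18).

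The steps of the study were then compared over the whole group. A change was called when it was beyond 1 on the log2 CPM scale, and the share of the 12915 kept genes that passed the same limit is given as background. From day 3 to day 4 morning, 1 of the 10 genes was lower (Jun) and none was higher, while 11.5% of all kept genes were lower and 7.47% were higher. With libraries scaled to their totals, the background became 17.1% lower and 4.16% higher and Egr1 joined Jun, with a log2 change of -1.29 in place of -0.99. The members' share at this step was near the background.

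Between day 4 morning and evening, 5 of the 10 were higher (Fosb, Fos, Ier3, Egr1 and Fosl2) and Jun was lower, against 7.21% higher and 6.95% lower among all kept genes. Fosb was kept only through day 4 evening, so its place among the 5 follows from the filter. The median log2 change of the 10 was 1.02, and that of all kept genes was 0.00. Junb (0.79), Atf3 (0.42, -0.07 to 0.93) and Jund (0.14) did not pass the limit, and Fosl1 had no counts. The smooth muscle markers moved in the same direction at this step, with 4 of the 5 kept higher, none lower and a median of 1.46, at summed levels of 18.9 and 24.4 CPM over the full list. Of the 5 kept embryo and trophoblast markers 0 were higher and 2 were lower. The part of other cells was not tested.

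From day 4 evening to day 5 away, 2 of the 10 were higher (Fosl1 and Fosl2) and 4 were lower (Fosb, Atf3, Fos and Egr1), and among all kept genes 12.9% were higher and 12.7% lower. The place of Fosb among the lower follows from the filter, which it passed only through day 4 evening. Scaled to library totals, the background shares were 17.4% and 9.78%, and Egr1 moved to -0.97. The median of the members was -0.60, beside 0.01 for all kept genes. Jund (-0.79), Ier3 (-0.41), Junb (-0.25) and Jun (0.22) did not pass the limit. Among those that did, the counting intervals of Fosl1 and Egr1 crossed it. At the same step 4 of the 9 luminal epithelium markers were lower and 1 was higher (median -0.51), and 3 of 8 immune markers were lower and 0 higher (-0.34). Their part was not tested.

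From day 4 evening to day 5 around, 6 of the 10 were higher (Fosl1, Egr1, Ier3, Fosl2, Junb and Jun) and Fosb was lower. Fosl1 was kept only through day 5 around and Fosb only through day 4 evening, so their places here follow from the filter. Scaled to library totals, 5 were higher, Jun having moved to 0.95. The summed levels of the embryo and trophoblast, smooth muscle and gland markers were 8.09, 24.4 and 37.4 CPM on day 4 evening and 125, 395 and 59.9 CPM in day 5 around, and their part was not tested. The background was wider than at the other steps, with 19.1% of all kept genes higher and 20.7% lower. The median log2 change was 1.16 for the members and -0.02 for all kept genes. This comparison shares the day 4 evening library with the one before it and with the step within day 4.

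Within day 5, 8 of the 10 were higher around the embryo than away from it, none was lower, and among all kept genes 13.4% were higher and 15.0% lower. Fosl1 was kept only through day 5 around, so its place among the 8 follows from the filter. Scaled to library totals, the background shares were 9.97% and 21.7%, and 7 of the 10 genes were higher, Jund having moved to 0.71. All 10 genes were above 0 under each library scaling tried, where 46.9% of all kept genes were above 0 with TMM. The median log2 change was 1.97, or 1.93 with Fosb at its bound from the floor of 3 counts, beside -0.05 for all kept genes. In order of size the changes were those of Egr1 (4.17), Fosl1 (3.65), Ier3 (3.25), Fos (2.42), Atf3 (1.52), Junb (1.52) and Jund (1.02), with Jun (0.82) and Fosl2 (0.68) under the limit. With the floor of 3 counts and without counting error, Fosb was at least 5.05-fold higher. The counting intervals of Jund and Atf3 reached below 1. Markers of other cells moved in the same direction between these libraries for 3 lists. Their summed levels in day 5 away and day 5 around were 8.47 and 125 CPM for the embryo and trophoblast, 31.8 and 395 CPM for smooth muscle, and 7.56 and 59.9 CPM for glands. Several of these markers, among them Gata3, Cnn1, Myh11, Prss29 and Lif, reached a mean of 1 CPM only through day 5 around. Their part was not tested. Of the 6 endothelial markers 1 was higher and 2 were lower, with a median of -0.74.

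**Figure D4:**
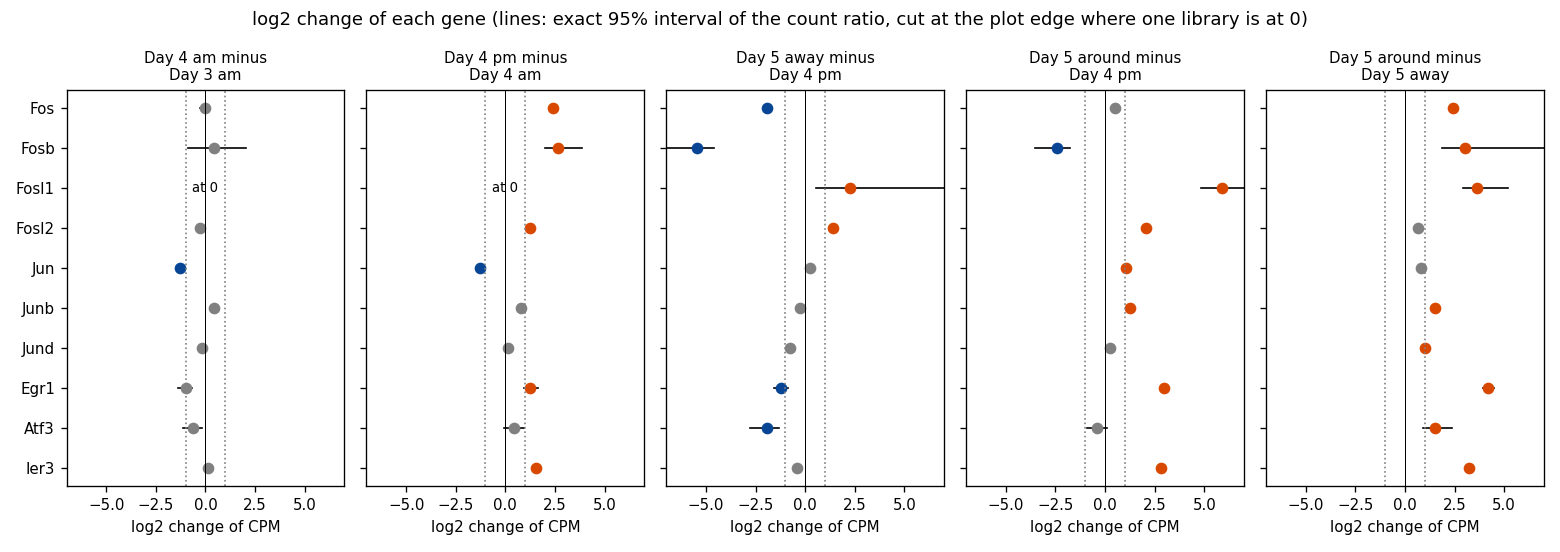
log2 change of CPM of each gene (rows) in each of the 5 comparisons (panels), with exact 95% intervals of the count ratio as lines; orange marks changes above 1, blue those below -1, grey the others, and dotted lines stand at -1 and 1. In the last panel all 10 points lie right of 0, and 8 of them are past the dotted line.

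Other genes of the same pathway were read from lists chosen with earlier results of these data known. Of 33 further immediate early genes 29 were kept. Egr2, at 0.345, 0, 1.77, 0.107 and 32.6 CPM, was kept only through day 5 around, where it counts among the higher. In order of the steps above, 4, 12, 5, 17 and 20 of the 29 were higher and 10, 1, 8, 2 and 0 were lower, with median log2 changes of -0.66, 0.94, 0.32, 1.74 and 1.48. Beside these stand the shares of all kept genes at the same steps, 7.47%, 7.21%, 12.9%, 19.1% and 13.4% higher and 11.5%, 6.95%, 12.7%, 20.7% and 15.0% lower, which serve for the lists that follow as well. With library totals the first step had 1 higher and 14 lower, with a median of -0.96, and the last had 17 higher and 1 lower, with a median of 1.17. Day 4 evening and day 5 around were thus the libraries in which more of the list was higher than lower.

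Ptgs2 (cyclooxygenase-2), the enzyme of prostaglandin synthesis used as a mark of attachment, had 89.4, 18.7, 61.4, 3.59 and 479 CPM. It was 133-fold higher in day 5 around than in day 5 away, with a log2 change of 7.02. Phlda1, a regulator of survival signalling, was at 13.6, 5.74, 4.55, 6.00 and 134 CPM. Cyr61, a matricellular protein, was at 15.9, 1.84, 42.9, 57.0 and 680.1 CPM, with its first step up within day 4, where it was 23.4-fold higher in the evening. Both shared the high level in day 5 around.

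Arc and Sgk1 behaved otherwise. Arc, best known as a synaptic immediate early gene, had 4, 2, 27, 587 and 899 counts, so it was high in both day 5 libraries, and its log2 change between them was 0.73 (0.58 to 0.88). Sgk1, a serum- and glucocorticoid-induced kinase, was at 793, 284, 30.4, 299 and 413 CPM. It was the 1 gene of the list that was lower on day 4 evening, 9.35-fold below the morning. Ier5l, a relative of Ier5, was at 18.4, 2.34, 6.13, 10.6 and 29.1 CPM, so its first step was 7.85-fold downward.

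Genes that switch off MAP kinase signalling, themselves often induced by it, were measured as 16 genes, all kept. At the 5 steps 0, 6, 5, 8 and 10 were higher and 5, 0, 3, 0 and 2 were lower, with medians of -0.48, 0.49, 0.36, 1.04 and 1.26, where 12.9% of all kept genes were higher at the third step and 13.4% at the fifth. Dusp1, a nuclear phosphatase of MAP kinases, was at 20.6, 20.8, 44.4, 6.59 and 38.6 CPM, a course like that of Fos with its high libraries on day 4 evening and in day 5 around. Dusp2 was at 2.88, 1.67, 6.51, 4.83 and 38.8 CPM. Spry4, an inhibitor of receptor tyrosine kinase signalling, was at 3.34, 1.5, 3.86, 9.49 and 43.8 CPM. Dusp7, a phosphatase of Erk, was high in both day 5 libraries at 46.8 and 101 CPM, against 12.8 CPM on day 4 evening.

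Of the 20 kinases and factors upstream of immediate early genes, all kept, 2, 0, 0, 3 and 4 were higher and 0, 0, 1, 2 and 2 were lower at the 5 steps, and with library totals the last step had 0 higher and 3 lower. Of all kept genes 19.1% were higher at the fourth step and 13.4% at the fifth. Stat3, the effector of Lif and related cytokines, was at 94.4, 225, 273, 358 and 513 CPM, with a called step of 2.38-fold between day 3 and day 4 morning. With library totals 1 gene of the list in place of 2 was higher at that step, and Stat3 did not pass the limit. Map2k4, a kinase upstream of Jnk, was at 73.2, 86.8, 129, 216 and 493 CPM. Elk3, a partner of serum response factor, was at 33.3, 20.9, 16.8, 24.6 and 61.0 CPM.

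Among 16 other bZIP factors that can pair or compete with AP-1, 15 were kept, and 2, 4, 2, 6 and 3 were higher and 1, 0, 2, 5 and 3 lower. In day 5 away and within day 5 these counts were near the background, at which 12.9% and 13.4% of all kept genes were higher and 12.7% and 15.0% lower. Crem, a cyclic AMP responsive factor, was at 36.6, 20.8, 225, 48.0 and 63.9 CPM. It was 10.8-fold higher on day 4 evening than that morning and then lower in both day 5 libraries, as Fosb was. Maff, a small Maf protein, was at 5.36, 3.34, 10.9, 31.7 and 141 CPM. Cebpd was at 36.7, 74.2, 381, 394 and 940 CPM. Jdp2, a repressor that binds Jun, was at 27.9, 88.7, 53.4, 19.9 and 2.79 CPM, and its level in day 5 around was 19.2-fold below day 4 evening.

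Of 15 genes with textbook AP-1 sites 10 were kept, and 1, 3, 1, 4 and 5 were higher and 4, 0, 4, 2 and 1 lower at the 5 steps. Plau, at 1.44, 0.223, 0.126, 0.483 and 3.48 CPM, was kept only through day 5 around, where it counts among the higher. In day 5 around against day 4 evening, 20.7% of all kept genes were lower, and in day 5 away 12.9% were higher, so the counts of 2 and 1 there were near the background. Plaur, the urokinase receptor, was at 1.73, 0.334, 2.91, 4.77 and 44.8 CPM. Timp1, an inhibitor of matrix metalloproteinases, was at 2.19, 2.45, 16.4, 6.81 and 65.4 CPM, high in the same libraries as Fos. Hmox1, the haem-degrading enzyme, was at 11.7, 14.8, 30.3, 40.2 and 637 CPM. Others of the list had other courses. Ccnd1, a G1 cyclin, was at 68.3, 14.3, 20.7, 34.4 and 11.1 CPM, 3.10-fold lower around the embryo than away from it. Il6, a cytokine, had 657, 238, 267, 0 and 39 counts. With the floor of 3 counts it was at least 105-fold lower in day 5 away than on day 4 evening, and the counting interval of that log2 change reached -6.41. Cd44, the hyaluronan receptor, was at 27.8, 37.8, 51.5, 19.6 and 25.7 CPM, highest on day 4 evening.

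Heat shock genes are a separate class of rapidly induced genes. With TMM scaling 0 of the 10 passed the limit upward at the first 4 steps, and 1 did so between the day 5 libraries, where the count was 0 with library totals. Those lower numbered 0, 0, 1, 2 and 0. The 2 lower in day 5 around, Dnaja1 and Hspe1, and the 1 higher within day 5 were near the background shares of 20.7% and 13.4%. On day 4 evening all 10 were above their morning level without passing the limit, with a median log2 change of 0.35. Dnajb1, a co-chaperone, was at 83.6, 83.1, 91.3, 80.3 and 174 CPM. Dnaja1 was at 664, 624, 1059.9, 405 and 420.1 CPM, highest on day 4 evening without passing the limit there, and Hspe1, the mitochondrial chaperonin partner, was at 208, 164, 260.5, 133 and 105 CPM.

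**Figure D5:**
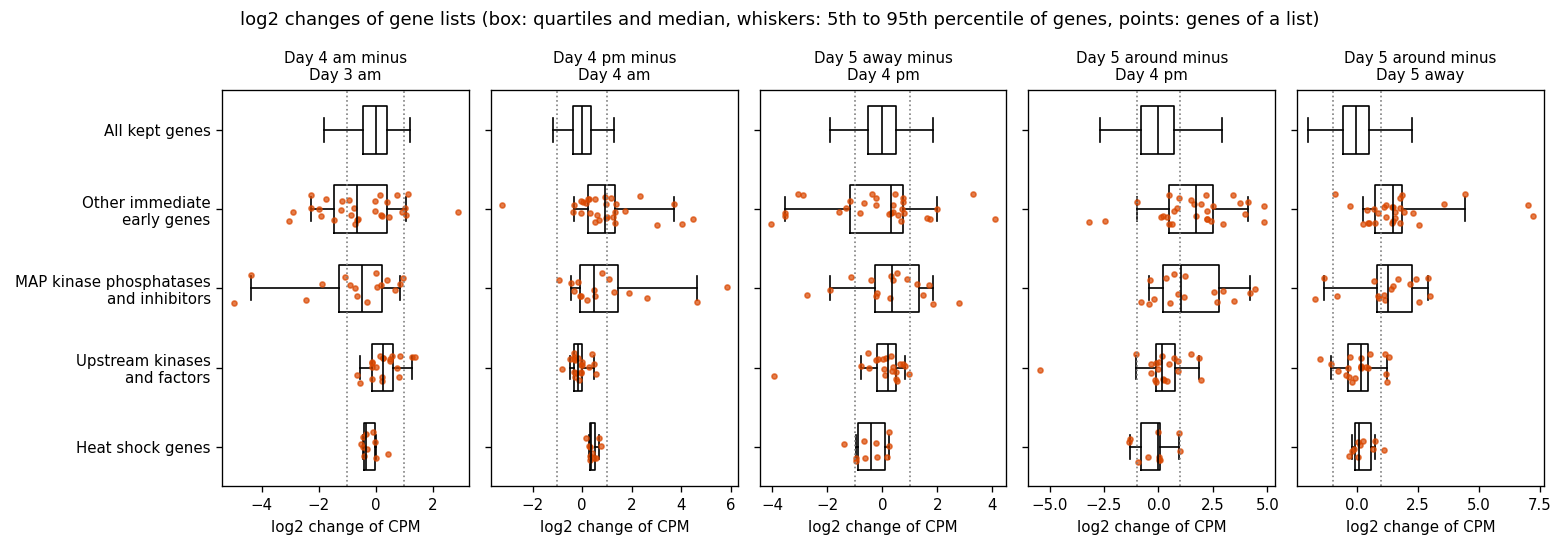
log2 change of CPM in each comparison (panels, each with its own x axis) for all kept genes and for 4 gene lists; boxes give the quartiles and the median, whiskers the 5th and 95th percentile, and orange points single genes. Medians of the further immediate early genes were 0.94 on day 4 evening against the morning and 1.48 in day 5 around against day 5 away, with all kept genes at 0.00 and -0.05.

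The 10 genes did not share 1 course. For Fosl1 and Fosb, which had libraries at 0 counts, only lower bounds of the range can be given. Under the floor of 3 counts, without counting error, these were at least 35.5-fold and 30.3-fold. The span of log2 CPM over the 5 libraries was 4.48 for Ier3 and 4.23 for Egr1, and it was between 2.14 and 3.30 for Fosl2, Fos, Jun, Junb and Atf3. Likeness of course was measured as the root mean square difference of log2 CPM over the 5 libraries after centring each gene, so 0 means the same course, and the points share their libraries and depth. The closest pairs among the 10 were Jund and Atf3 (0.47), Fos and Junb (0.62), Egr1 and Ier3 (0.69), and Fosl2 and Junb (0.71). Of the 8842 genes that averaged 10 CPM or more, the nearest to Fos were Gpr4, a proton-sensing receptor (0.28), Gm14005 (0.36) and Coq10b (0.39). Egr1 had Tnc, the matrix protein tenascin C (0.24), Fgl2 (0.24) and Cxcr7 (0.26) as nearest, and Ier3 had Egflam (0.26), Dusp2 (0.30) and Pmepa1 (0.33).

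Some of the nearest genes were themselves transcription factors or cell cycle genes. Nearest to Fosl2 were Slc16a11 (0.11), 2200002D01Rik (0.15) and Cebpb, a bZIP factor required for decidualization (0.17), which was at 145, 127, 251, 550.2 and 1024 CPM. Jun was nearest to Psat1, an enzyme of serine synthesis (0.27), and the mitotic genes Aurka (0.28) and Tacc3 (0.32), all highest on day 3 morning. Junb was nearest to Hic1 (0.08), Tnfrsf1b (0.13) and Ctsb (0.14). For Fosl1 and Fosb these distances depend on the prior count, since some of their libraries were at 0. For Fosl1 the nearest were Glrx (0.31), Btc, the ErbB ligand betacellulin (0.39), and Nipal1 (0.44). Fosb was nearest to Nudt19 (0.69), Nr4a2, another immediate early factor (0.79), and Gm11545 (0.79), at distances larger than those of the other genes, and Atf3 to Itga6 (0.18), Gm3604 (0.23) and Gm10509 (0.24). For Jund, whose span was under 2 on the log2 scale, none were sought.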

How the data were processed

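RNA of laser-microdissected luminal layers was amplified with the SMART-seq v.4 kit and sequenced, and paired-end reads were aligned with HISAT2 to GRCm38/mm10 and counted with featureCounts of Subread 2.0.0, as the study's methods and the submitters' processing notes state. The authors deposited raw counts per gene, with gene length and position, for 5 libraries in 1 table. The gene annotation, the strand setting and the treatment of reads with several alignments were not given in the sources used here. Total counts ranged from 15334674 to 19529491, so that the floor of 3 counts stands at 0.161 to 0.190 CPM.

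Counts were scaled by TMM (edgeR 4.0.16, R 4.3.3). The prior count in log2 CPM was 2. Only genes that averaged 1 CPM or more were kept. With 1 library per group no test was run and no p-value is given. Intervals are exact (Poisson for a level, Clopper-Pearson for a ratio of counts; Python 3.11.15, scipy 1.17.1). Folds against a library at or under 3 counts set that library at 3 counts, and are lower bounds under that floor alone. Counting error is not in them, and the exact intervals can reach below them. The calls and intervals were tried on simulated data, for which no outcome is given here, so no result rests on that. Alternatives were DESeq2 1.42.0 size factors, library totals with and without Rn45s and Lars2, a prior count of 0.5, other filters and a log2 limit of 1.5.

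The 10 genes and all lists were chosen with earlier results of these data known. Named from the lists were, per comparison, the 2 genes with the largest called change among those averaging 10 CPM or more, and, per gene with a log2 span over 2, the 3 genes of the nearest course. Of the cell type lists, the gene most abundant on average was named. Ccdc85b and further cell type markers, such as Foxa2, Lif, Pou5f1, Tek, Hand2 and S100a8, were named outside this rule after their values were seen. Promoter sequences are from RefSeq, on GRCm38.p6.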

Additional observations from a re-analysis of the deposited data

Results flagged for a closer look

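Of the 10 genes, 5 had opposite directions in the 2 day 5 libraries when each was set against day 4 evening, with counting intervals under TMM scaling that did not hold 0 on either side. In day 5 away and day 5 around, the log2 changes were -1.92 and 0.5 for Fos, -0.25 and 1.27 for Junb, -0.79 and 0.24 for Jund, -1.2 and 2.97 for Egr1, and -0.41 and 2.84 for Ier3. With library totals the change of Junb in day 5 away was -0.02, so its direction there rests on the scaling. The difference between the libraries was not tested, since each is a single library and both are set against the same day 4 evening library. Of these changes, those of Fos and Egr1 in day 5 away and those of Junb, Egr1 and Ier3 in day 5 around passed the 2-fold limit. The embryo and trophoblast markers summed to 8.47 CPM in day 5 away and 125 CPM in day 5 around, and their part was not tested.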

How the results depend on the processing

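Counts of the 10 genes past the limit moved by over 1.5 times in these cases. From day 3 to day 4 morning, 2 genes in place of 1 were lower (Jun and Egr1) with library totals, with library totals without Rn45s and Lars2 and with a prior count of 0.5, and 0 were lower at a log2 limit of 1.5. At that limit, day 4 evening had 3 higher (Fos, Fosb and Ier3) and 0 lower, and day 5 away had 1 higher (Fosl1). With a mean of at least 5 CPM, which left 7 of the 10 genes, day 5 away had 1 higher (Fosl2) and 2 lower (Egr1 and Fos) against day 4 evening, day 5 around had 0 lower against it, and day 5 around had 5 higher against day 5 away (Egr1, Fos, Ier3, Junb and Jund).

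Of 192 recomputed log2 changes, 2 had the other sign, both for Ier3 between day 3 and day 4 morning (-0.19 and -0.05 in place of 0.11), and 8 were on the other side of the limit. These were Egr1 from day 3 to day 4 morning (-1.29, -1.14 and -1.0 in place of -0.99), Egr1 in day 5 away (-0.97), Jun in day 5 around (0.95 and 0.89 in place of 1.04) and Jund between the day 5 libraries (0.71 and 0.74). With library totals the median log2 change of all kept genes went from 0.00 to -0.29 between day 3 and day 4 morning, from 0.01 to 0.23 in day 5 away, from -0.02 to -0.11 in day 5 around and from -0.05 to -0.36 within day 5. Rn45s and Lars2 took 15.0% to 23.2% of a library. Depth limits Fosb, Fosl1 and Atf3 most, which had at most 116 counts in any library. No paired analysis was possible because each group holds 1 library.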
